A study of Mus musculus with 6 samples.

Results

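A set of 37 genes of the colon epithelium was followed in RNA sequencing data of colon B cells of mice. The genes were chosen by symbol as genes of colonocytes, goblet cells and cell junctions, and all 37 were found among the 20591 genes of the deposited table. No filter on low values was applied to them. The 2 groups were sorted B cells from colons of mice that received lenvatinib and B cells from colons of mice that received DMSO, with 3 libraries each. Lenvatinib is a small molecule that inhibits receptor tyrosine kinases, among them the VEGF and FGF receptors, and DMSO is a solvent used here as the vehicle control. The series title names colitis and the homing of B cells through the gut endothelium as the setting, while the sample labels give treatment and cell type alone. The sources used here give neither strain, sex, age, dose and duration nor the sorting gate and the inflammatory state. The libraries are numbered as biological replicates without word of separate animals, so the p-values below reflect how much the libraries vary, and that variation may be technical.

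The inner surface of the colon is a single layer of epithelial cells that are joined by claudins and cadherins and filled with a keratin cytoskeleton. Absorptive colonocytes take up water and salt and hydrate carbon dioxide with carbonic anhydrases, and goblet cells secrete the mucus that keeps bacteria away from the surface. B cells are not an epithelial lineage and belong to the lamina propria and lymphoid follicles beneath that layer. In bulk libraries such as these, fewer cells of a type and less RNA per cell cannot be told apart.

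Of the 37 genes, 36 had a higher mean with lenvatinib, and 17 (45.9%) rose past an adjusted p of 0.05 by limma, against 3.65% of all 19715 genes tested that rose. No member fell, against 2.76% of all genes, and 20 members did not pass. In either direction 6.41% of all genes passed. With limma-voom on whole reads recovered from the FPKM values, 24 members rose and none fell past the same threshold, against 5.52% of all genes higher and 5.07% lower. The median difference on the scale of log2(scaled FPKM + 1) was 0.66 over the members and 0.01 over all genes tested. Slc26a3 and Aqp8 were the only 2 members with no read in any DMSO library. Their fitted differences were replaced by the log2 ratio of read rates that 3 reads over the DMSO group would give. The member median was then 0.70, a value that mixes this ratio, which has nothing added, with the scale above. In 29 members (78.4%) every lenvatinib library lay above every DMSO library, against 13.5% of all genes. In no member did every lenvatinib library lie below every DMSO library, against 10.9% of all genes. Because the members were chosen with earlier results of these libraries known, none of these counts is independent evidence of a direction. The numbers of calls over all genes fell with fewer libraries: leaving out any 1 of the 6 gave between 420 and 487 genes called higher in place of 719. The drop was similar whichever library was left out, so it does not point to a particular library. The members called higher then numbered between 14 and 18.

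Levels were low in both groups. The members together took 8333, 8130 and 7763 reads in lenvatinib replicates 1, 2 and 3, and 3203, 4291 and 3455 reads in DMSO replicates 1, 2 and 3. These reads were between 0.0263% and 0.0282% of a lenvatinib library and between 0.0115% and 0.0137% of a DMSO library. The read number here is the smallest whole number that fits the FPKM steps of a gene. Each library held between 26635279 and 31655500 reads in all. The mean reached a scaled FPKM of 1 for 19 members in lenvatinib libraries and for 10 in DMSO libraries. In the DMSO libraries 11 members had no read in at least 1 library, and 13 members had fewer than 30 reads over the group. For such genes the scale with 1 added to each value understates a ratio, so reads are given beside it.

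**Figure D1:**
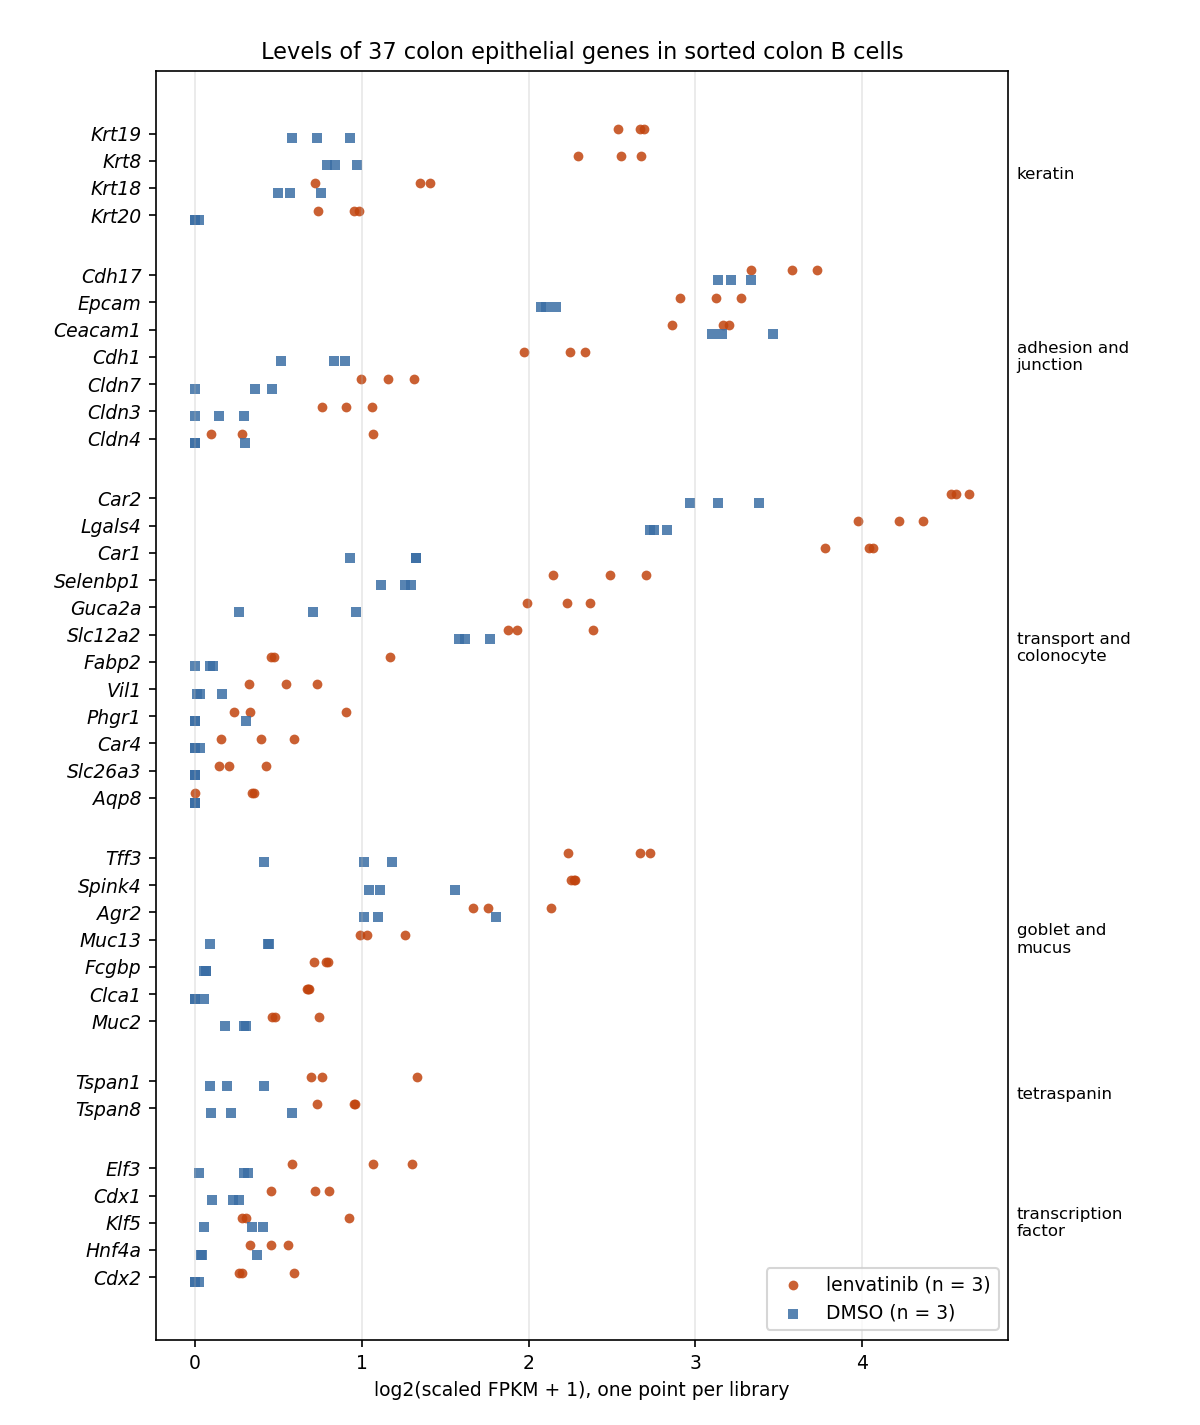
Scaled FPKM of the 37 genes in each of the 3 lenvatinib and 3 DMSO libraries, 1 point per library (orange circles for lenvatinib, blue squares for DMSO), on a log2(scaled FPKM + 1) axis and grouped by role. The lenvatinib points lie apart from and above the DMSO points in 29 of the 37 genes.

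For 26 of the 37 genes the RefSeq promoter table of build GRCm38.p6, which is not the authors' build GRCm39, holds the 250 bases before the transcription start. A set of 5 is printed here because they belong to members with unlike patterns: a keratin and an ion exchanger with almost no DMSO reads, an adhesion molecule with many reads in every library, and a neighbouring claudin pair that differed in its replicates. Capitals mark the TATA box letters TATAAA, the CDX letters CCATAAA and the GC box letters GGGCGG on either strand.
Krt20, chr11:99438154-99438403, minus strand: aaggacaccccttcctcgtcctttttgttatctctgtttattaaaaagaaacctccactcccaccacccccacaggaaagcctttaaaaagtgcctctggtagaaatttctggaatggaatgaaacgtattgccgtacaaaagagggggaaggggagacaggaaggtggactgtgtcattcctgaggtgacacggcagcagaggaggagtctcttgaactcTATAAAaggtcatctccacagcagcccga
Slc26a3, chr12:31437969-31438218, plus strand: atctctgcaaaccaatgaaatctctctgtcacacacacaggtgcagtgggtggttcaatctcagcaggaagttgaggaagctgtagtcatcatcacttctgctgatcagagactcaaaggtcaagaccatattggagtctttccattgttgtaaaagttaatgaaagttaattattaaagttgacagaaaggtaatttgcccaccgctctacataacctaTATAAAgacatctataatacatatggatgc
Epcam, chr17:87635729-87635978, plus strand: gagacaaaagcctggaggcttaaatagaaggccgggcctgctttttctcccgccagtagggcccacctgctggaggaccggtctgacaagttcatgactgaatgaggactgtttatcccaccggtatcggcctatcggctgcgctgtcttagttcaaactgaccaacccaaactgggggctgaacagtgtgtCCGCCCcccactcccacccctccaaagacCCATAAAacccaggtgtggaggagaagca
Cldn3, chr5:134985964-134986213, plus strand: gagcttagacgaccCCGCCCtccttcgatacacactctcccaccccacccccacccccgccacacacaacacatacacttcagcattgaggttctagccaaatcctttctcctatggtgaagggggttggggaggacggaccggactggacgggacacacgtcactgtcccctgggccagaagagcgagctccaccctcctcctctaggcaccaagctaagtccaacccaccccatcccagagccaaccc
Cldn4, chr5:134946935-134947184, minus strand: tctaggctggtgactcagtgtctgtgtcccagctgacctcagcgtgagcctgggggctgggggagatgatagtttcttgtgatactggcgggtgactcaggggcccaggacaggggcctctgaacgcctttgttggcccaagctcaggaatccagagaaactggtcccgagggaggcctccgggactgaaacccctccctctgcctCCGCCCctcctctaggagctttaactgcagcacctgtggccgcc

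TATAAA on either strand was found in 4 of the 29 windows of these 26 genes (13.8%) and in 12.4% of all 32851 windows of that length. The 4 were those of Krt20, Slc26a3, Muc2 and Selenbp1. The TATAAA of Krt20 lay 29 to 24 bases before the start and that of Slc26a3 30 to 25 bases before it. CAATAAA or CCATAAA, the letters that caudal homeobox factors such as Cdx1 and Cdx2 bind, were found in 3 windows (10.3%), those of Epcam, Agr2 and Fabp2, and in 6.51% of all windows. A copy of these letters cannot also be a copy of TATAAA on the same strand. The Epcam copy lay 29 to 23 bases before the start. The GC box was found in 8 member windows (27.6%) and in 32.7% of all windows, and CAAAGTC, letters found in binding sites of Hnf4a, in 1 member window (3.45%), that of Muc13, and in 3.84% of all. These matches describe letters and do not show binding.

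Keratins form the intermediate filaments of epithelial cells, with Krt8 pairing with Krt18 and Krt19 across the colon epithelium and Krt20 marking its differentiated surface cells. Of the 4 keratins, 3 rose. Krt8 had 4.87, 5.37 and 3.92 scaled FPKM in the lenvatinib libraries, against 0.965, 0.731 and 0.794 in the DMSO libraries. The lowest lenvatinib library lay far above the highest DMSO library, with means of 4.72 ± 0.734 and 0.83 ± 0.121 (SD, n = 3 each). The log2 difference was 1.64 (SE 0.12, limma adjusted p = 0.000702). Krt19 had 5.47, 5.36 and 4.8 scaled FPKM in the lenvatinib libraries, against 0.909, 0.5 and 0.659 in the DMSO libraries. The lenvatinib libraries again lay close together and clear of the DMSO libraries, and the log2 difference was 1.88 (SE 0.11, limma adjusted p = 0.00043). Krt20, whose promoter is printed above, had 61, 53 and 36 reads in the lenvatinib libraries, against 0, 1 and 0 reads in the DMSO libraries. With a single DMSO read the ratio of read rates was 150, with a 95% interval for counting error from 26.5 to 5959. The log2 difference was 0.88 (SE 0.10, limma adjusted p = 0.00367). Krt18 had 0.65, 1.55 and 1.65 scaled FPKM in the lenvatinib libraries, against 0.487, 0.414 and 0.69 in the DMSO libraries. Here lenvatinib replicate 1 lay below DMSO replicate 3, and the gene did not pass (log2 difference 0.55, SE 0.20, limma adjusted p = 0.183). It did pass without lenvatinib replicate 1, but that was its lowest lenvatinib library, so this adds no evidence. Krt8 and Krt18 are neighbours in the genome with no protein-coding gene between them.

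Of the 7 adhesion and junction genes 4 rose, and the log2 difference ranged from 1.44 for the cadherin Cdh1 to −0.16 for Ceacam1. Epcam, an adhesion molecule of the lateral membrane and the usual sorting marker of epithelial cells, had 7.72, 8.65 and 6.5 scaled FPKM in the lenvatinib libraries, against 3.21, 3.31 and 3.48 in the DMSO libraries. The DMSO libraries were nearly equal, and the lenvatinib libraries all lay above them. The log2 difference was 0.99 (SE 0.10, limma adjusted p = 0.00283). Cdh1, the cadherin of adherens junctions, had 2.93, 4.06 and 3.75 scaled FPKM in the lenvatinib libraries, against 0.863, 0.784 and 0.429 in the DMSO libraries. The groups were well apart, with a log2 difference of 1.44 (SE 0.15, limma adjusted p = 0.00259). Cdh17 is a cadherin found in the intestinal lateral membrane, and which cells its reads came from was not tested. It had 9.07, 12.2 and 10.95 scaled FPKM in the lenvatinib libraries, against 8.26, 9.06 and 7.78 in the DMSO libraries. Lenvatinib replicate 1 lay just above DMSO replicate 2, and the gene did not pass (log2 difference 0.32, SE 0.11, limma adjusted p = 0.166). Ceacam1, a carbohydrate-rich adhesion receptor that epithelial cells and also lymphocytes carry, had 8.21, 6.25 and 7.99 scaled FPKM in the lenvatinib libraries, against 7.95, 10.04 and 7.56 in the DMSO libraries. It was the only member with a lower mean with lenvatinib, the groups overlapped, and the gene did not pass (log2 difference −0.16, SE 0.13, limma adjusted p = 0.578). Its difference was negative in all 17 fits tried. Mouse Ceacam1 has a close paralogue, Ceacam2, and reads shared between them cannot be assigned from these values.

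The claudins are tetraspan proteins that seal tight junctions. Cldn7 had 57, 63 and 40 reads in the lenvatinib libraries, against 11, 17 and 0 reads in the DMSO libraries. Every lenvatinib library lay above every DMSO library, and the log2 difference was 0.88 (SE 0.15, limma adjusted p = 0.0214). Cldn3 had 28, 32 and 38 reads in the lenvatinib libraries, against 0, 9 and 4 reads in the DMSO libraries. The groups were apart here too, with a log2 difference of 0.76 (SE 0.12, limma adjusted p = 0.0164). Both calls were lost in several of the fits with 1 library left out, which have fewer libraries to test with. The limma adjusted p of Cldn3 went above 0.05 without lenvatinib replicate 2 or 3 or DMSO replicate 1 or 3, to at most 0.0618. That of Cldn7 did so without lenvatinib replicate 1 or 2 or DMSO replicate 1, to at most 0.0698, and with a pseudocount of 0.1 in place of 1, to 0.0629. Cldn4, the gene next to Cldn3, had 4, 58 and 11 reads in the lenvatinib libraries, against 11, 0 and 0 reads in the DMSO libraries. Most of its reads came from lenvatinib replicate 2, the groups overlapped, and it did not pass (log2 difference 0.38, SE 0.25, limma adjusted p = 0.487). The neighbours thus had unlike replicate patterns over the same 6 libraries.

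The genes of transport, the brush border and colonocyte enzymes took the largest share of the summed member level in lenvatinib libraries, and 5 of the 12 rose. Car1, a carbonic anhydrase of the colon, had 15.4, 12.7 and 15.7 scaled FPKM in the lenvatinib libraries, against 1.5, 0.903 and 1.51 in the DMSO libraries. The groups were far apart, and the log2 difference of 2.77 (SE 0.14, limma adjusted p = 0.000239) was the largest of the 37. Car2, a carbonic anhydrase of the cytosol, had 22.6, 24.0 and 22.2 scaled FPKM in the lenvatinib libraries, against 7.8, 9.44 and 6.81 in the DMSO libraries. It had the highest member mean with lenvatinib and rose with a log2 difference of 1.42 (SE 0.11, limma adjusted p = 0.000727). Among all genes of a library Car2 ranked between 2583 and 2749 by FPKM with lenvatinib and between 5028 and 5904 with DMSO. Car1 and Car2 lie in one cluster with 1 protein-coding gene between them, and their ratios of means were unlike, 11.2 for Car1 and 2.86 for Car2. Lgals4, a galectin of the intestinal epithelium, had 14.7, 17.6 and 19.6 scaled FPKM in the lenvatinib libraries, against 5.62, 6.12 and 5.73 in the DMSO libraries. The groups did not overlap, and the log2 difference was 1.42 (SE 0.10, limma adjusted p = 0.000671).

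Selenbp1, a selenium-binding methanethiol oxidase of mature enterocytes, had 3.43, 5.51 and 4.61 scaled FPKM in the lenvatinib libraries, against 1.39, 1.45 and 1.17 in the DMSO libraries. Every lenvatinib library was above the DMSO libraries (log2 difference 1.22, SE 0.15, limma adjusted p = 0.00537), but its near-identical copy Selenbp2 makes the assignment of its reads uncertain. Guca2a encodes guanylin, the peptide that acts on guanylyl cyclase C at the colonocyte surface. It had 66, 68 and 46 reads in the lenvatinib libraries, against 3, 11 and 16 reads in the DMSO libraries. The groups were apart, with a log2 difference of 1.55 (SE 0.20, limma adjusted p = 0.00607). The other 7 genes of this role did not pass by limma. Slc12a2, the sodium, potassium and chloride cotransporter that drives secretion and is also found outside epithelia, had 2.67, 2.81 and 4.22 scaled FPKM in the lenvatinib libraries, against 2.0, 2.4 and 2.08 in the DMSO libraries. Its groups did not overlap, with only a small gap between lenvatinib replicate 1 and DMSO replicate 2 (log2 difference 0.41, limma adjusted p = 0.192).

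The surface genes of mature colonocytes were near the limit of detection. Slc26a3, the chloride and bicarbonate exchanger whose promoter is printed above, had 16, 10 and 31 reads in the lenvatinib libraries, against 0 reads in each DMSO library. Car4, the carbonic anhydrase anchored to the outer membrane, had 6, 15 and 23 reads in the lenvatinib libraries, against 0, 0 and 1 reads in the DMSO libraries. Vil1, the actin bundler of microvilli, had 66, 42 and 22 reads in the lenvatinib libraries, against 10, 1 and 2 reads in the DMSO libraries. All of these had every lenvatinib library above every DMSO library without passing, at limma adjusted p = 0.124 for Slc26a3, 0.119 for Car4 and 0.077 for Vil1. Fabp2, a fatty acid carrier of enterocytes, had 12, 35 and 10 reads in the lenvatinib libraries, against 2, 2 and 0 reads in the DMSO libraries (limma adjusted p = 0.131). It showed the same separation, with most reads in lenvatinib replicate 2. Aqp8, a water channel of the colon surface, had 0, 12 and 11 reads in the lenvatinib libraries, against 0 reads in each DMSO library (limma adjusted p = 0.256). Aqp8 and Car4 passed without lenvatinib replicate 1, the lenvatinib library with their fewest reads, so this adds no evidence. Phgr1, a small protein gene of the gut epithelium, had 3, 4 and 13 reads in the lenvatinib libraries, against 0, 4 and 0 reads in the DMSO libraries (limma adjusted p = 0.342). Aqp8 and Phgr1 overlapped between groups. With limma-voom on the recovered reads, Slc26a3, Car4, Vil1 and Fabp2 passed, while Aqp8 and Phgr1 did not.

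Of the 7 goblet cell and mucus genes, 5 rose. Tff3, the trefoil peptide secreted with mucus, had 5.34, 5.63 and 3.71 scaled FPKM in the lenvatinib libraries, against 0.331, 1.26 and 1.02 in the DMSO libraries. The groups were apart, although DMSO replicate 1 was well under the other two, and the log2 difference was 1.67 (SE 0.23, limma adjusted p = 0.00823). Fcgbp, a protein bound within the mucus gel, had 162, 168 and 162 reads in the lenvatinib libraries, against 10, 10 and 11 reads in the DMSO libraries. Both groups were tight, the means of 0.702 ± 0.0534 and 0.0449 ± 0.00377 scaled FPKM (SD, n = 3 each) stood in a ratio of 15.7, and the log2 difference was 0.70 (SE 0.08, limma adjusted p = 0.00399). Clca1, a secreted metalloprotease of goblet cells, had 66, 59 and 57 reads in the lenvatinib libraries, against 0, 0 and 4 reads in the DMSO libraries. It was nearly absent from the DMSO libraries and even across the lenvatinib libraries (log2 difference 0.66, SE 0.08, limma adjusted p = 0.00386). Spink4, a protease inhibitor gene of goblet cells, had 3.83, 3.85 and 3.77 scaled FPKM in the lenvatinib libraries, against 1.16, 1.06 and 1.95 in the DMSO libraries. Its lenvatinib libraries were almost equal, and the log2 difference was 1.03 (SE 0.15, limma adjusted p = 0.00951). With limma-voom on the recovered reads Spink4 did not pass (adjusted p = 0.122). Muc13, a mucin of the cell membrane, had 1.05, 1.4 and 0.985 scaled FPKM in the lenvatinib libraries, against 0.357, 0.065 and 0.359 in the DMSO libraries. The groups did not overlap (log2 difference 0.77, SE 0.14, limma adjusted p = 0.024), but the call was lost when any 1 library was left out, at an adjusted p of up to 0.0724.

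The main gel mucin was not among those that rose. Muc2 had 301, 160 and 145 reads in the lenvatinib libraries, against 49, 99 and 99 reads in the DMSO libraries. The lenvatinib libraries all lay above the DMSO libraries, with lenvatinib replicate 1 far above the other two (log2 difference 0.30, limma adjusted p = 0.189). Its length puts many reads behind a small FPKM, and limma-voom on the recovered reads gave an adjusted p of 0.0306. Agr2, a disulfide isomerase that folds mucins, had 3.39, 2.17 and 2.38 scaled FPKM in the lenvatinib libraries, against 2.49, 1.02 and 1.14 in the DMSO libraries. DMSO replicate 1 lay among the lenvatinib libraries, and the gene did not pass (log2 difference 0.55, limma adjusted p = 0.268).

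Neither tetraspanin and none of the 5 transcription factors passed by limma. Tspan1 had 1.52, 0.694 and 0.623 scaled FPKM in the lenvatinib libraries, against 0.336, 0.143 and 0.0657 in the DMSO libraries (limma adjusted p = 0.0908). Tspan8 had 0.938, 0.66 and 0.945 scaled FPKM in the lenvatinib libraries, against 0.162, 0.498 and 0.0711 in the DMSO libraries (limma adjusted p = 0.0774). Both membrane proteins had every lenvatinib library above every DMSO library, and Tspan8 passed without DMSO replicate 2. The intestinal homeobox factor Cdx1 had 36, 38 and 18 reads in the lenvatinib libraries, against 8, 11 and 4 reads in the DMSO libraries (limma adjusted p = 0.0768). Its relative Cdx2, which sets intestinal identity, had 15, 32 and 12 reads in the lenvatinib libraries, against 1, 0 and 0 reads in the DMSO libraries. For Cdx2 the ratio of read rates was 59, with a 95% interval for counting error from 10.2 to 2367, while the log2 difference was 0.37 (limma adjusted p = 0.0831). Elf3, an ETS factor of epithelial differentiation, had 70, 29 and 81 reads in the lenvatinib libraries, against 1, 14 and 15 reads in the DMSO libraries (limma adjusted p = 0.0742). All 3 of these factors had groups that did not overlap, and Cdx2 and Elf3 passed without lenvatinib replicate 2. Hnf4a, the nuclear receptor of enterocytes, had 39, 51 and 62 reads in the lenvatinib libraries, against 4, 43 and 4 reads in the DMSO libraries. DMSO replicate 2 reached the lenvatinib range, and the gene did not pass (limma adjusted p = 0.24). Klf5, a factor of proliferating crypt cells, had 0.236, 0.219 and 0.899 scaled FPKM in the lenvatinib libraries, against 0.329, 0.0372 and 0.27 in the DMSO libraries. Its groups overlapped (limma adjusted p = 0.581). With limma-voom on the recovered reads, Tspan1, Cdx2 and Elf3 passed, while Tspan8, Cdx1, Hnf4a and Klf5 did not.

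**Figure D2:**
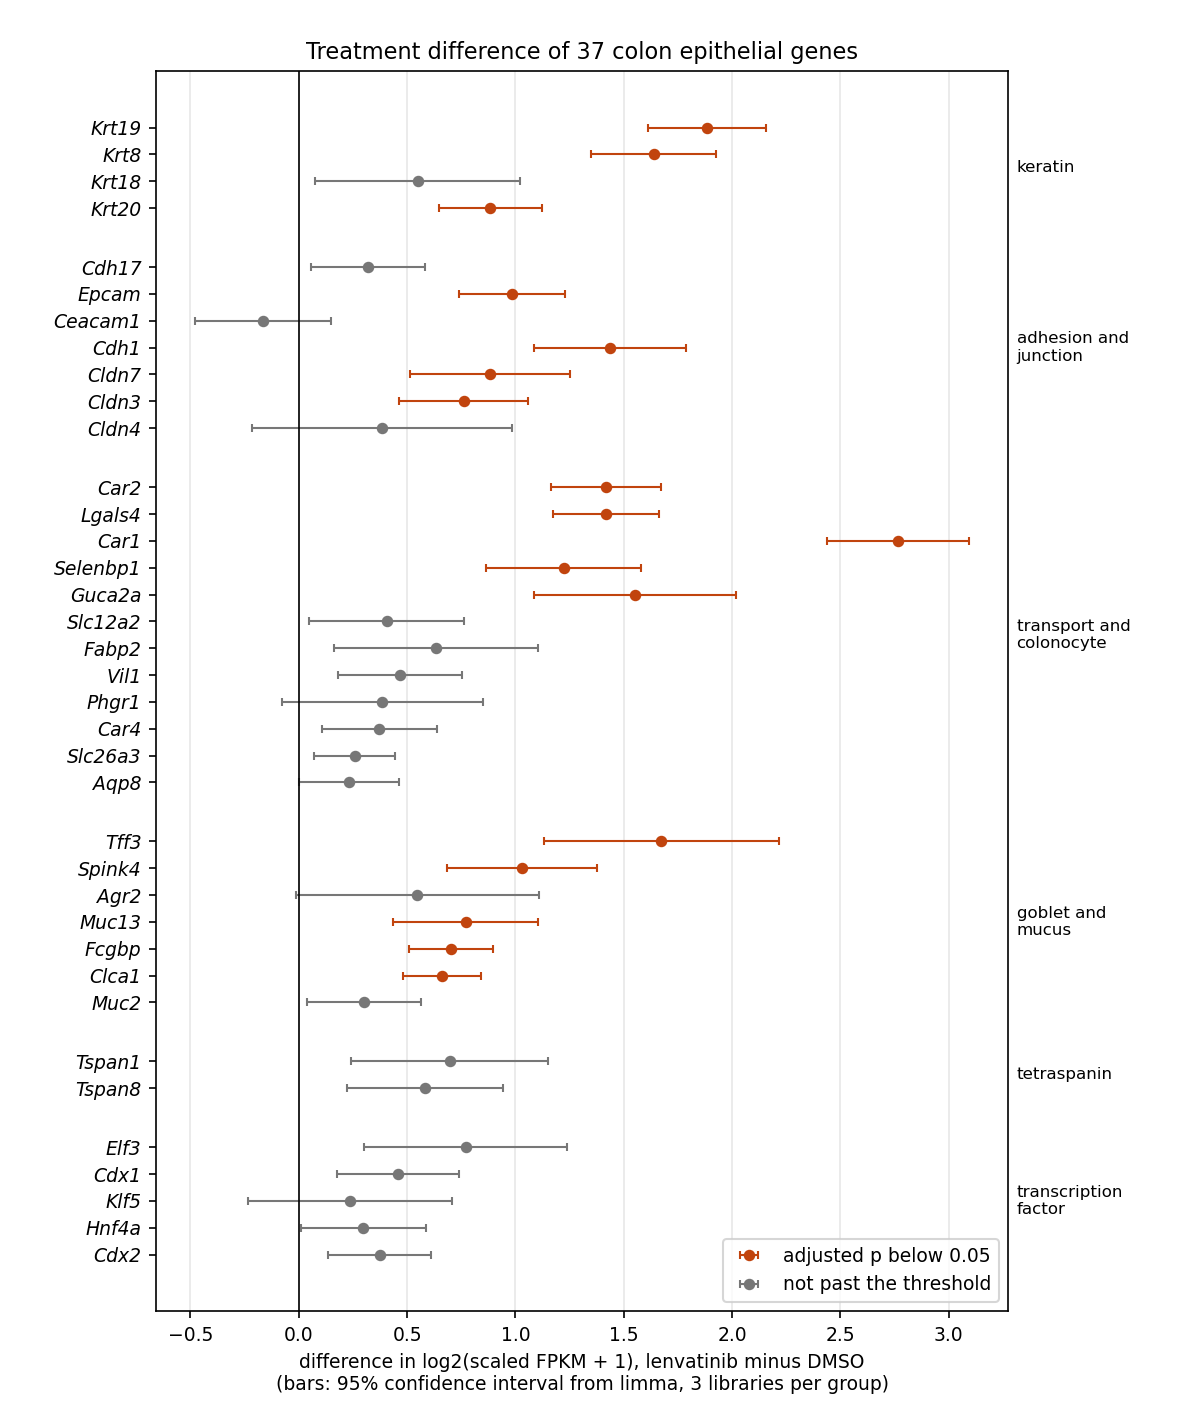
Fitted log2 difference of each of the 37 genes, lenvatinib minus DMSO, on the scale of log2(scaled FPKM + 1), with 95% intervals, grouped by role, with orange for genes that passed an adjusted p of 0.05 and grey for the others. Car1 has the largest difference, 2.77, and Ceacam1, at −0.16, is the only gene below 0.

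Ratios of read rates, which are free of the added 1, ranged widely among the 35 members with reads in both groups, with a median of 5.25. The ratio was below 2 in 4 members, from 2 to under 4 in 11, from 4 to under 8 in 12 and 8 or more in 8. The interval for counting error lay above 1 in 34 of the 35 and below 1 in Ceacam1. The 4 below 2 were those of Ceacam1, of Cdh17 at 1.29 (3385 reads over the lenvatinib libraries and 2617 over the DMSO libraries), of Slc12a2 at 1.49 (1921 and 1284 reads) and of Agr2 at 1.80 (90 and 50 reads). These intervals leave out the spread between libraries.

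The makeup of the summed level also differed between groups. The 37 genes summed to 126, 136 and 132 scaled FPKM in lenvatinib replicates 1, 2 and 3, against 47.5, 51.8 and 45.3 in DMSO replicates 1, 2 and 3. The ratio of the mean sums was 2.73, and the lowest lenvatinib library was more than double the highest DMSO library. Transport and colonocyte genes made up 52.1% ± 2.06 of this sum in lenvatinib libraries and 40.3% ± 0.815 in DMSO libraries (SD, n = 3 each). Adhesion and junction genes made up 24.4% ± 1.02 in lenvatinib libraries and 44.2% ± 1.65 in DMSO libraries. Keratins made up 9.19% ± 0.724 in lenvatinib libraries and 4.30% ± 0.957 in DMSO libraries. Single genes carried much of this: Ceacam1 took 5.69% of the sum with lenvatinib and 17.7% with DMSO, Cdh17 8.18% and 17.4%, and Car1 11.1% and 2.71%. Car2 took similar shares, 17.4% with lenvatinib and 16.6% with DMSO. Goblet cell and mucus genes took 10.9% ± 1.38 with lenvatinib and 9.06% ± 1.78 with DMSO, with overlap between the groups. The 5 leading genes were Car2, Lgals4, Car1, Cdh17 and Epcam with lenvatinib (55.7% of the sum) and Ceacam1, Cdh17, Car2, Lgals4 and Epcam with DMSO (70.7%).

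Per role, the ratio of summed levels was 5.88 for keratins, 4.22 for tetraspanins, 4.21 for transcription factors, 3.53 for transport and colonocyte genes, 3.30 for goblet cell genes and 1.502 for adhesion and junction genes. The keratins summed to between 11.04 and 13.2 scaled FPKM in lenvatinib libraries and between 1.66 and 2.36 in DMSO libraries. The transcription factors summed to between 2.35 and 3.41 in lenvatinib libraries and between 0.571 and 0.759 in DMSO libraries. In every role the lowest lenvatinib sum was above the highest DMSO sum.

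Other genes of the epithelium were taken from 9 lists for its cell types and functions, 135 genes of which 120 were in the table. Of these, 10 rose (limma, adjusted p of 0.05), 1 fell and 108 did not pass, and Cldn8 had no read in any library. The genes that rose were 8.4% of the 119 tested, against 3.65% of all genes, and the gene that fell was 0.84%, against 2.76% of all genes. In 36 of them (30.3%) every lenvatinib library lay above every DMSO library, against 13.5% of all genes. In 2 of them (1.68%), Plac8 and Ephb3, every lenvatinib library lay below every DMSO library, against 10.9% of all genes. Their median log2 difference was 0.09, against 0.66 for the 37 members, but with 1 added to each value both medians depend on the levels of the genes. By the ratio of read rates, which has nothing added, the median was 1.69 over the 90 further genes with reads in both groups, against 5.25 over 35 members. A further 24 of these genes had reads in lenvatinib libraries alone and 5 in DMSO libraries alone. The difference between further genes and members was not tested. The further colonocyte genes had 2 that rose and 1 that fell among 19. Cyp2c55, a cytochrome P450 of the colon, had 188, 194 and 158 reads in the lenvatinib libraries, against 1, 0 and 0 reads in the DMSO libraries. It was all but absent with DMSO, with a log2 difference of 1.97 (SE 0.09, limma adjusted p = 0.000202). Pigr, the receptor that carries IgA across the epithelium, rose to 4.38 ± 0.304 scaled FPKM in lenvatinib libraries, against 1.75 ± 0.109 in DMSO libraries (limma adjusted p = 0.00124). Plac8 fell to 80.2 ± 1.36 scaled FPKM in lenvatinib libraries, against 118 ± 4.8 in DMSO libraries (limma adjusted p = 0.000533). At that level Plac8, which lymphoid and myeloid cells also express, was far above every member.

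Among further goblet cell genes 2 of 14 rose, the mucus lectin Zg16 (6.71 ± 1.98 scaled FPKM in lenvatinib libraries and 0.496 ± 0.145 in DMSO libraries, limma adjusted p = 0.00124) and the lectin Reg4 (2.57 ± 0.547 and 0.428 ± 0.369, limma adjusted p = 0.0131). Reg4 lost its call without lenvatinib replicate 1 or 2 or DMSO replicate 3. Retnlb, a resistin-like peptide that kills bacteria, had 17, 5 and 14 reads in the lenvatinib libraries and 0 reads in each DMSO library (limma adjusted p = 0.0507, and 0.0101 without lenvatinib replicate 2). Of the epithelial defence genes 2 of 12 rose, with a list median of 0.38. Reg3b, an antibacterial lectin, averaged 9.08 ± 0.965 scaled FPKM in lenvatinib libraries and 1.22 ± 0.282 in DMSO libraries (log2 difference 2.19, limma adjusted p = 0.000347). Lypd8, which binds flagellated bacteria at the colon surface, averaged 7.58 ± 0.763 in lenvatinib libraries and 1.7 ± 0.244 in DMSO libraries (log2 difference 1.67, limma adjusted p = 0.00045). Duoxa2, the maturation factor of the oxidase Duox2, did not pass (limma adjusted p = 0.0711), but did without lenvatinib replicate 1 (0.023).

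In each of the remaining lists at most 2 genes rose and none fell, while over all genes 3.65% rose and 2.76% fell. On lists this short, 1 or 2 genes that rose were already a larger share than that over all genes. Crypt base stem and progenitor genes had 1 that rose among 12, Axin2, a target of Wnt signalling (0.674 ± 0.113 scaled FPKM in lenvatinib libraries and 0.114 ± 0.0394 in DMSO libraries, limma adjusted p = 0.0145). Its call was lost without lenvatinib replicate 1 or DMSO replicate 2 or 3. Of the 12 genes, 8 had a higher mean with lenvatinib. In 5 every lenvatinib library lay above every DMSO library and in 1 below, against 13.5% and 10.9% of all genes. The genes with lower means are named here after their values were seen. Ephb3, an ephrin receptor of the crypt, had 1, 4 and 1 reads in the lenvatinib libraries, against 9, 8 and 10 reads in the DMSO libraries, with no overlap (limma adjusted p = 0.144). The stem cell receptor Lgr5 had 6, 0 and 0 reads in the lenvatinib libraries, against 8, 6 and 1 reads in the DMSO libraries, which overlap (limma adjusted p = 0.588). Smoc2 and Ascl2 also had lower means with lenvatinib, on 5 and 0 reads over the lenvatinib libraries and 10 and 1 over the DMSO libraries. Further junction genes had 2 that rose among 25. Ctnnb1, the catenin that nearly all cells express, averaged 79.8 ± 2.55 scaled FPKM in lenvatinib libraries and 66.8 ± 1.8 in DMSO libraries (limma adjusted p = 0.0107). Cldn15, a claudin that forms sodium pores, averaged 0.483 ± 0.0791 in lenvatinib libraries and 0.0674 ± 0.101 in DMSO libraries (limma adjusted p = 0.0402). Cldn15 lost its call without any 1 library except DMSO replicate 1, at an adjusted p of up to 0.137. Further epithelial transcription and splicing factors had 1 that rose among 16, Isx, on 6, 3 and 4 reads in the lenvatinib libraries and 0 reads in each DMSO library (limma adjusted p = 0.0389). Isx lost its call without lenvatinib replicate 3 or any 1 DMSO library, at an adjusted p of up to 0.128. The enteroendocrine, tuft, and small intestine and Paneth lists had no gene past the threshold by limma among 7, 7 and 8 genes, and their summed levels were at most 1.31 scaled FPKM in every library. The small intestine and Paneth list summed to between 0.538 and 0.849 in lenvatinib libraries and between 0.667 and 0.896 in DMSO libraries, with overlap between the groups.

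**Figure D3:**
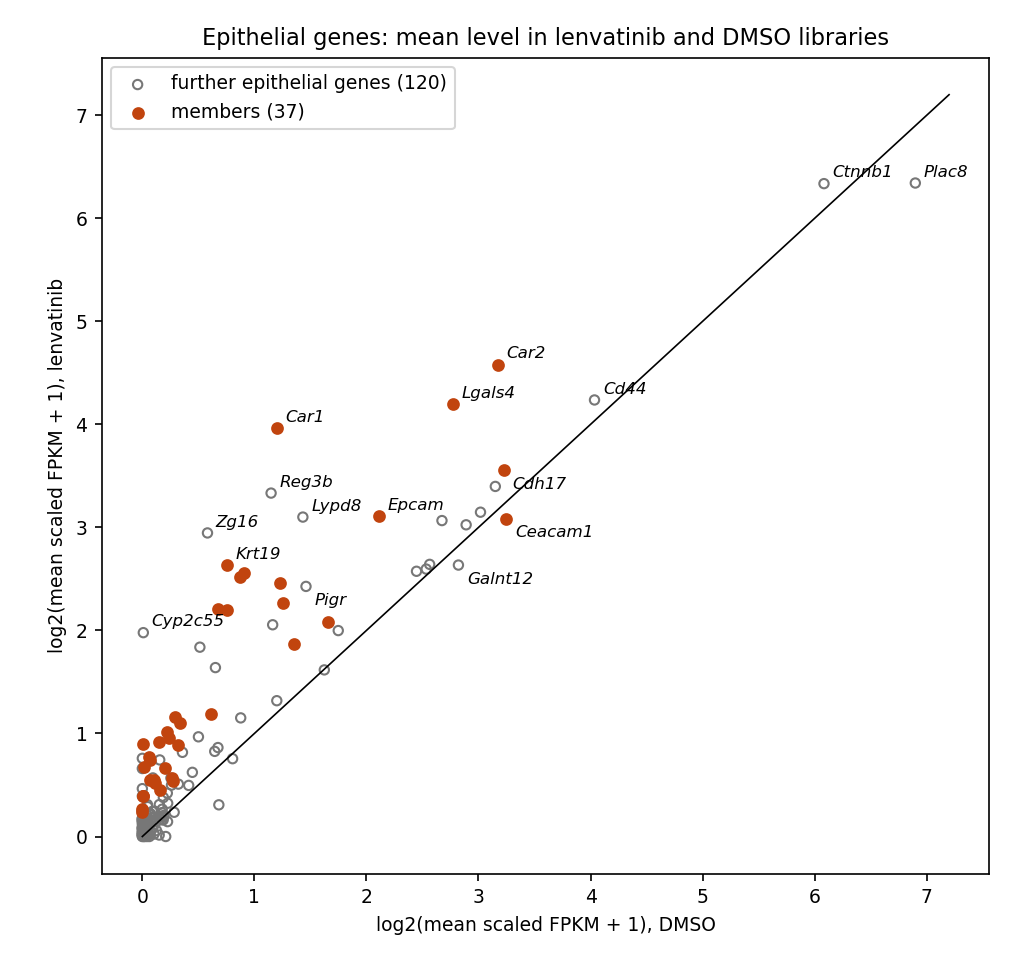
Mean level in lenvatinib libraries (vertical) against mean level in DMSO libraries (horizontal), both as log2(mean scaled FPKM + 1), for the 37 members (filled) and 120 further epithelial genes (open), with the line of equality. Car1, Reg3b, Zg16 and Cyp2c55 stand far above the line, Ceacam1 and Plac8 lie below it, and most further genes lie near the origin.

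The labelled cell type was checked with genes of B cell identity, which summed to between 3630 and 3684 scaled FPKM in lenvatinib libraries and between 4244 and 4280 in DMSO libraries. B cell genes were thus at a far higher level than the epithelial members in both groups, and 13 of the 18 genes fell (limma), among them Cd79a of the B cell receptor at 802 ± 20.9 in lenvatinib libraries and 1035 ± 21.6 in DMSO libraries. Genes of some other cell types rose as well, while over all genes 3.65% rose and 2.76% fell (limma). Those of intraepithelial lymphocytes, which lie within the epithelial layer, rose in 9 of 9 cases and summed to between 371 and 402 in lenvatinib libraries and between 106 and 109 in DMSO libraries. T cell genes rose in 7 of 11 cases, and natural killer and innate lymphoid genes in 7 of 12. The T cell receptor subunit Cd3e averaged 15.8 ± 0.306 in lenvatinib libraries and 2.6 ± 0.227 in DMSO libraries. The T cell genes that did not pass are named here after their values were seen. Cd8b1 averaged 1.39 in lenvatinib libraries and 1.76 in DMSO libraries, and Cd4 averaged 1.27 and 1.25. For Cd5 the means were 1.33 and 1.22, and for Lat 4.80 and 3.16. Macrophage and dendritic cell genes had 1 that rose among 11 (Cd14, lost without any 1 library except lenvatinib replicate 2) and summed to between 71.1 and 80.5 in lenvatinib libraries and between 60.6 and 63.6 in DMSO libraries. Fibroblast and smooth muscle genes had none past the threshold by limma among 11 and summed to between 7.55 and 8.91 in lenvatinib libraries and between 4.41 and 6.43 in DMSO libraries. Neutrophil genes had none among 7, with sums from 11.96 to 17.1 in lenvatinib libraries and from 6.43 to 7.44 in DMSO libraries. Endothelial genes had 1 that rose (Cldn5, lost without DMSO replicate 2 or 3 and, at an adjusted p of 0.05003, without lenvatinib replicate 3) and 1 that fell (Pecam1, which B cells also carry) among 10, and summed to between 35.1 and 35.3 in lenvatinib libraries and between 42.9 and 44.2 in DMSO libraries. Pecam1 alone averaged 32.9 in lenvatinib libraries and 42.3 in DMSO libraries and made up most of the endothelial sums. Of the 10 endothelial genes, 7 had a higher mean with lenvatinib, so these sums do not describe the list. Enteric neuron and glia genes had none past the threshold among 5, and the neuronal marker Elavl4 was at 0 in every library. The part of any of these cell types in the epithelial differences was not tested.

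**Figure D4:**
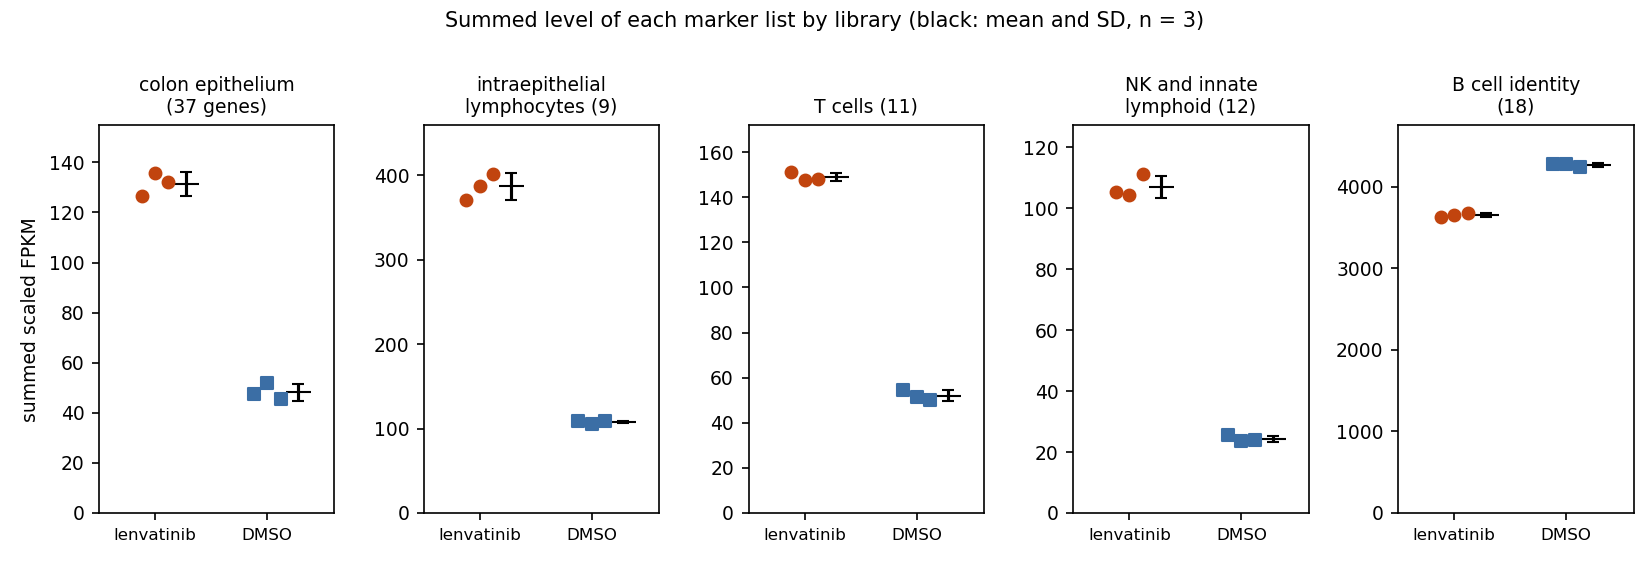
Summed scaled FPKM, on linear axes from 0, of the 37 epithelial genes and of the lists for intraepithelial lymphocytes, T cells, natural killer and innate lymphoid cells, and B cell identity, 1 point per library with the mean and SD in black. The lenvatinib sums lie above the DMSO sums for the epithelial members (126 to 136 against 45.3 to 51.8) and for the intraepithelial lymphocyte, T cell and natural killer lists, and below them for B cell identity genes.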

How the data were processed

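RNA of B cells sorted from mouse colons was sequenced in 3 lenvatinib and 3 DMSO libraries. Per the labels' protocols, TRIzol RNA went into a VAHTS Universal V10 library kit, and per the submitters' processing notes, HTSeq and the build GRCm39 were used. For the aligner, annotation, HTSeq version and strand setting nothing is given in the sources used here, so reads of overlapping and antisense genes may be mixed. The authors deposited FPKM values (reads scaled to gene length and to the total of the library) for 20591 gene symbols, used as given.

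FPKM was scaled by median-of-ratios factors (0.992 to 1.009). FPKM is not a count, so log2(scaled FPKM + 1) of the 19715 genes with any value was fitted without a filter in limma 3.58.1 (R 4.3.3), with treatment as the only term, trend and robust moderation. Tests were two-sided, with Benjamini-Hochberg adjustment over all these genes and a threshold of 0.05. The scale with 1 added understates the change of low genes. Whole reads were recovered from the FPKM steps for 19714 genes (tolerance 1e-05), and 13 of 13 mitochondrial gene lengths matched the annotation. These lengths had also been used to set the library totals, so the match is not an independent check. Intervals of read ratios are exact 95% intervals and cover counting error only. Both procedures were tested on simulated data. Of 200 genes changed by a factor of 2 there, limma called 55%, and of 200 changed by a factor of 4 it called 80%. Genes with few reads were not among those changed, so this does not cover members with few reads.

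The 37 members and all lists were chosen with earlier results of these data known. Every member is accounted for, and from each of the 18 other lists the 3 genes with the smallest p could be named. A gene outside this would be said to be chosen after its values were seen. Replicates differed by more than counting noise, so no library was a copy of another. Other pseudocounts, filters, scalings, a replicate term, no trend or robust moderation, limma-voom on the recovered reads, and leaving out each library were tried. Promoter windows are those of RefSeq on GRCm38.p6, searched on both strands, and no coordinates were carried between builds.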

Additional observations from a re-analysis of the deposited data

How the results depend on the processing

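The count of members called lower was 0 in every alternative run, and 13 members were called higher in every fit that tested them: Car1, Car2, Cdh1, Clca1, Epcam, Fcgbp, Guca2a, Krt8, Krt19, Krt20, Lgals4, Selenbp1 and Tff3. The log2 ratio of the summed level, 1.45, stayed between 1.40 and 1.502 in the other scalings and without any 1 library. The number called higher was 17, between 14 and 18 when 1 library was left out, 24 with limma-voom, and 18 when the pseudocount was 0.1. Requiring FPKM of 1 in 3 libraries left 15 members, 4 of them through the lenvatinib libraries alone, of which 11 were called and 13 did not overlap, with a median of 1.42. Requiring a mean of 0.5 left 21, of which 16 were called and 18 did not overlap, with a median of 0.99. Under that filter Elf3, Tspan1 and Tspan8 gained a call (limma adjusted p = 0.0265, 0.0362 and 0.0379). Their DMSO means were 0.165, 0.181 and 0.244 scaled FPKM, and their lenvatinib means 1.02, 0.944 and 0.847. These genes met the filter through the lenvatinib libraries alone, so the gained calls add no evidence. Krt18, Aqp8, Car4, Elf3, Retnlb, Duoxa2 and Apoa1 gained a call without the lenvatinib library where each was lowest. Tspan8 gained one without the DMSO library where it was highest. Such calls add no evidence either. With a pseudocount of 0.1 Cldn7 lost its call (0.0629). The counts that did not overlap are smaller because fewer members were tested. The median of 0.66 became 1.66 when the pseudocount was 0.1, 1.05 when it was 0.5, 2.50 with limma-voom and 0.63 with quantile normalization, and lay between 0.62 and 0.73 when 1 library was left out. Over all genes, 719 were called higher and 545 lower. These numbers were 1089 and 999 with limma-voom, 834 and 480 with FPKM as deposited, 601 and 614 with a common sum, and 610 and 595 with quantile normalization. Leaving out 1 library gave 420 to 487 higher and 304 to 333 lower. Gfap, on the list of neurons and glia, changed sign with quantile normalization (−0.00104) and without lenvatinib replicate 1, with a range from −0.00489 to 0.0302 when 1 library was left out. The causes were not tested.

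Libraries with the same replicate number did not deviate together (correlations −0.0073, 0.0092 and 0.0078). This shows no broad shared shift but cannot tell whether they were handled as pairs. With the replicate block, 16 members were called higher, Muc13 being lost (adjusted p = 0.106), and over all genes 337 were called higher and 255 lower. Depth limits the members with few DMSO reads: an interval of their ratio spans more than a factor of 10 where the DMSO libraries hold 1 read.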

Other observations

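Enteroendocrine, tuft and small intestine genes, the rarer lineages of the gut epithelium and those of its upstream part, were close to the limit of detection. Enteroendocrine genes summed to between 0.275 and 1.14 scaled FPKM in lenvatinib libraries and between 0 and 0.577 in DMSO libraries. The granin Chgb had 2, 19 and 24 reads in the lenvatinib libraries and 1, 0 and 6 reads in the DMSO libraries (limma adjusted p = 0.318). The hormone gene Sct had reads in DMSO replicate 3 alone, and Pyy in lenvatinib replicate 3 alone. Tuft cell genes summed to between 0.505 and 1.31 scaled FPKM in lenvatinib libraries and between 0.380 and 0.431 in DMSO libraries. Their leading gene, Sh2d6, had 31, 23 and 34 reads in the lenvatinib libraries and 11, 17 and 14 reads in the DMSO libraries, which do not overlap, but it did not pass (limma adjusted p = 0.194). Among small intestine and Paneth cell genes, the apolipoprotein Apoa1 had 7, 7 and 2 reads in the lenvatinib libraries and 0 reads in each DMSO library (limma adjusted p = 0.0932, and 0.0279 without lenvatinib replicate 3). Lyz1 averaged 0.238 ± 0.175 scaled FPKM in lenvatinib libraries and 0.605 ± 0.215 in DMSO libraries (limma adjusted p = 0.232), but shares reads with its near-identical copy Lyz2, at 28.7 ± 2.74 in lenvatinib libraries and 23.6 ± 1.39 in DMSO libraries.

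Some genes of the further lists that did not pass had higher means with lenvatinib, and 20 of the 90 with reads in both groups had a lower read rate with lenvatinib. The zinc finger factor Gata6 had 4, 10 and 1 reads in the lenvatinib libraries and 0 reads in each DMSO library (limma adjusted p = 0.32). The junction adhesion gene F11r averaged 0.762 ± 0.262 scaled FPKM in lenvatinib libraries and 0.282 ± 0.132 in DMSO libraries (limma adjusted p = 0.139). The stem cell surface gene Prom1 had 55, 25 and 25 reads in the lenvatinib libraries and 1, 0 and 10 reads in the DMSO libraries (limma adjusted p = 0.116). Cd44, which lymphocytes also carry, averaged 17.9 ± 0.774 scaled FPKM in lenvatinib libraries and 15.4 ± 0.238 in DMSO libraries (limma adjusted p = 0.0676).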
